A study of Mus musculus with 6 samples.

Results

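The genes described here encode the subunits of the transcription factor NF-kappa B, the proteins that hold those subunits back, and 2 enzymes that switch them on or off. The 10 genes are *Nfkb1*, *Nfkb2*, *Rel*, *Rela*, *Relb*, *Nfkbia*, *Nfkbie*, *Nfkbiz*, *Map3k14* and *Tnfaip3*. They were chosen by gene name among 37074 gene names on the array, with every probe that carries one of the names, and the genes to be named were settled with earlier results of these data known. All 10 were found, with 21 probes among them, and 20 of the 21 probes were bright enough to test.

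RNA was taken from osteoclasts, the multinucleated cells that resorb bone, grown from bone marrow cells with RANKL for 5 days. The 3 control cultures came from Ano1fl/fl mice, in which the chloride channel gene *Ano1* carries loxP sites and is intact. The other 3 came from Ctsk-Cre;Ano1fl/fl littermates, which carry the same floxed alleles and a Cre recombinase under the control of cathepsin K, a gene of maturing osteoclasts and of some other cells of bone. For such cultures in general the methods give mice of 6 to 8 weeks, 1 day of M-CSF at 10 ng/ml and then 30 ng/ml M-CSF with 50 ng/ml RANKL, in both genotypes alike, and do not say that animals were pooled. After the day of M-CSF, the cells in suspension were the ones collected for osteoclast culture, and no sort of the cultured cells is named. Each array carries RNA labelled with a single dye, and levels below are log2 processed signals after quantile normalization, compared only within a probe.

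NF-kappa B proteins work in pairs built from RelA, c-Rel, RelB, p50 (cut from the *Nfkb1* product p105) and p52 (cut from the *Nfkb2* product p100). I kappa B proteins keep the pairs out of the nucleus until a kinase marks them for destruction. In the alternative branch the kinase NIK, the product of *Map3k14*, starts the cutting of p100. RANKL acts on osteoclast precursors through both branches, and mice without p50 and p52 together form no osteoclasts.

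No array showed *Ano1*, the targeted gene, well above background, so its level could not check the labels, and every direction below rests on them. The libraries were alike within a group (r = 0.9941 to 0.9965) and less alike between groups (0.944 to 0.9498, across probes, which are not replicates). Between 33480 and 34951 of 59305 spots per array were well above background and 0 were saturated. All 9 osteoclast markers rose in the libraries labelled Ctsk-Cre;Ano1fl/fl, with *Acp5* up by 0.84 and *Ctsk* by 3.17 on the log2 scale, the opposite of the direction that the study describes for osteoclast markers of this genotype by other assays. Their summed signal was 143100 to 155600 in Ano1fl/fl and 494000 to 556800 in Ctsk-Cre;Ano1fl/fl. Differences were common over the whole array: 51.5% of the 20645 genes tested passed limma at an adjusted p under 0.05.

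Short stretches of promoter sequence are shown first because several of these genes are themselves known targets of NF-kappa B. The kappa B consensus was searched on both strands. It reads 3 G, a purine, 2 bases of any kind, 2 pyrimidines and 2 C, and the forward and reverse matches may overlap, as they do in *Nfkb2* and *Rel*. RefSeq promoters (GRCm38.p6, from 250 bases before to 50 after the start) were given for 7 of the 10 genes, and *Nfkb1*, *Relb* and *Nfkbiz* had no entry. The consensus was in 5 of the 7 genes, against 9.55% of 27025 genes and 8.46% of 32851 promoters of the same length. In the 5 lines that follow, capitals mark the match, each line reads 5′ to 3′ on the strand of the gene, and each match is a match of letters, not a measured binding site.
*Nfkbia*, chr12:55492648-55492696, minus strand: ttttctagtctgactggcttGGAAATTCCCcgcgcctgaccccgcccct
*Nfkbie*, chr17:45555574-45555623, plus strand: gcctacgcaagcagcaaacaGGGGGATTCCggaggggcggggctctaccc
*Rel*, chr11:23771032-23771081, minus strand: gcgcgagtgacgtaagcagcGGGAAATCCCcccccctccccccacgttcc
*Nfkb2*, chr19:46304678-46304727, plus strand: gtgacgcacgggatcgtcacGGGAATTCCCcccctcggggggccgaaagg
*Tnfaip3*, chr10:19015411-19015442, minus strand: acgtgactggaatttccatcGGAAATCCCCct

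The matches printed begin 29 bases before the start in *Nfkbia*, 106 in *Nfkbie*, 92 in *Rel*, 39 in *Nfkb2* and 12 in *Tnfaip3*. *Tnfaip3* has a further match 125 bases before the same start and none at its other start site, and *Nfkb2* has further matches at its first start site and at both of its others. The windows of *Rela* and *Map3k14* held no match, which says only that these letters are not in them. Of these 7 genes, the 4 that rose with a match were *Nfkbia*, *Nfkbie*, *Rel* and *Tnfaip3*, *Nfkb2* held a match and did not pass the test, *Rela* rose without one and *Map3k14* fell without one. No test was made of motif against change.

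The array reads each gene through 60-base probes, and 5 of them, 1 per gene and each tied to a RefSeq transcript, are shown so that the sequences behind the values below can be seen for 2 subunits, 2 inhibitors and the kinase NIK. Positions are those of the array files on mm9, and no annotation of that build was used here to place them in exons.
*Nfkb1* probe A_55_P1968743, chr3:135254550-135254609, minus strand: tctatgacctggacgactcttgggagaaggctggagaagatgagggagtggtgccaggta
*Rela* probe A_55_P2744639, chr19:5645363-5645529, plus strand: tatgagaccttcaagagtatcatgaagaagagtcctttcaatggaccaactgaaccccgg
*Nfkbia* probe A_51_P295192, chr12:56590945-56591440, minus strand: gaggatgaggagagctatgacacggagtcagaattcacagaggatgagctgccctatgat
*Nfkbiz* probe A_55_P2039086, chr16:55817859-55817918, minus strand: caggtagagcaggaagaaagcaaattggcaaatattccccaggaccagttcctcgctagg
*Map3k14* probe A_55_P1988664, chr11:103101069-103101128, minus strand: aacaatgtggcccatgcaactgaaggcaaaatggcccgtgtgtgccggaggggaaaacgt

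The *Nfkbia* probe spans 496 bases of the genome and the *Rela* probe 167, so both cross a splice junction, and the other 3 lie in 60 unbroken bases. Of the 21 probes, 15 were tied to a RefSeq transcript in the array files and 6 were not, among the latter the brightest probes of *Nfkb1* and *Rel*, 1 further probe each of *Nfkb1*, *Relb* and *Map3k14*, and the dimmest of *Nfkbiz*.

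By its brightest probe, 8 of the 10 genes were higher in Ctsk-Cre;Ano1fl/fl, against 23.0% of all genes tested, 1 was lower, against 28.5%, and *Nfkb2* did not pass the test. The largest rise was that of the nuclear I kappa B gene *Nfkbiz* (11.1-fold), then the ubiquitin-editing enzyme gene *Tnfaip3* (3.00-fold) and the I kappa B alpha gene *Nfkbia* (2.10-fold). The single fall was that of *Map3k14*, the kinase of the alternative branch (2.18-fold). The 2 groups did not overlap in any of the 10, which 64.0% of all genes tested also show. The median difference of the 10 was 0.56 on the log2 scale, beside a median of -0.06 over all genes tested. Over probes, 13 of the 20 tested were higher, 3 were lower and 4 did not pass, where 52.4% of all 31848 probes tested passed in either direction. With 3 arrays against 3, an exact two-sided permutation test of a single gene cannot go below p = 0.1, so p-values here are those of limma, adjusted over all probes tested.

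**Figure D1:**
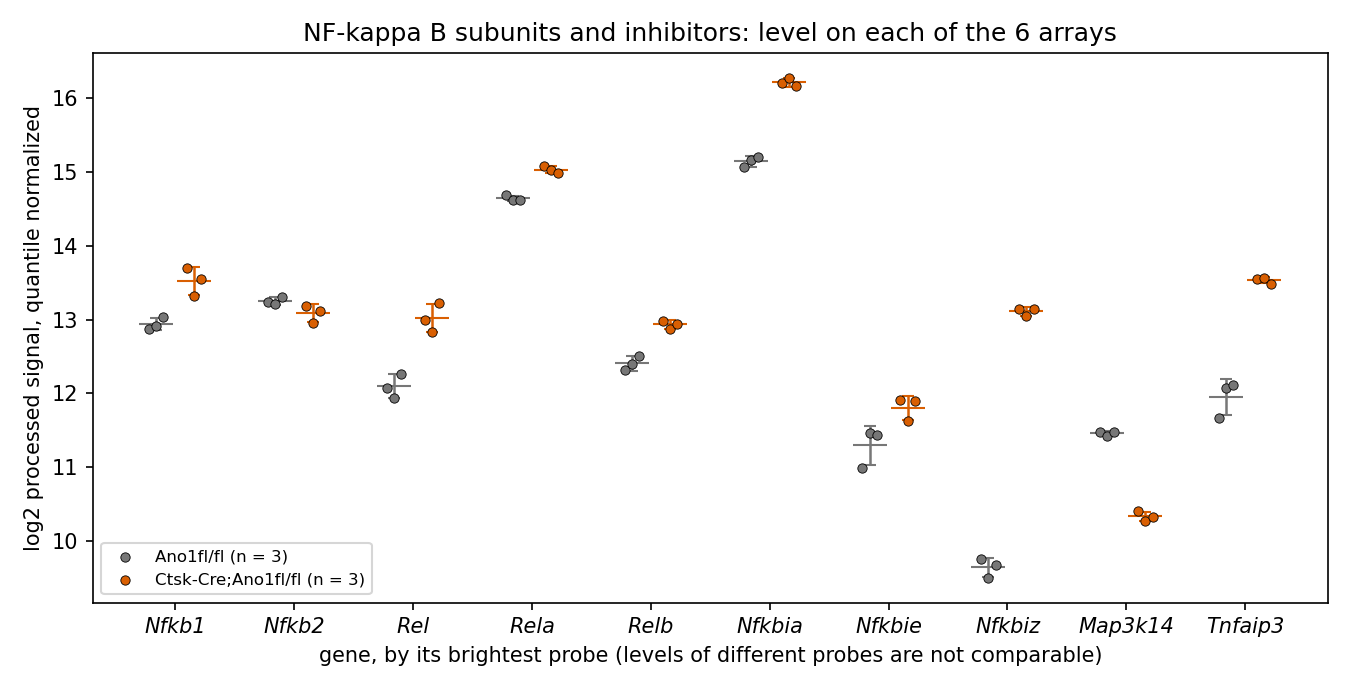
Level of the brightest probe of each of the 10 genes on the 6 arrays, as log2 processed signal after quantile normalization (vertical axis). Points are arrays, grey for Ano1fl/fl and orange for Ctsk-Cre;Ano1fl/fl, with the mean and SD of 3 arrays, and the groups stand apart for each gene, with Ctsk-Cre;Ano1fl/fl lower for *Nfkb2* and *Map3k14*.

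Among the subunits, *Rel* changed most. It encodes c-Rel, the subunit best known from lymphocytes and dendritic cells. Its brightest probe read 12.07, 11.95 and 12.27 in Ano1fl/fl and 13.00, 12.84 and 13.22 in Ctsk-Cre;Ano1fl/fl. All 3 Ctsk-Cre;Ano1fl/fl values lay above all 3 controls, by 0.92 on the log2 scale in the mean (SE 0.13, limma adjusted p = 0.00181, 1.90-fold). A second, dimmer *Rel* probe rose by 0.81 (SE 0.12, adjusted p = 0.0023), and the difference between the rises of the 2 probes did not pass (-0.12, adjusted p = 0.406). It passed with normexp background correction (-0.36, adjusted p = 0.0142) and with the series matrix values (-0.34, adjusted p = 0.0172).

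*Rela* encodes RelA (p65), the main activating subunit of the classical branch. Its brightest probe read 14.69, 14.63 and 14.63 in Ano1fl/fl and 15.09, 15.03 and 14.99 in Ctsk-Cre;Ano1fl/fl. The rise of 0.39 (SE 0.07, adjusted p = 0.0049, 1.31-fold) was the smallest among the 8 genes that rose. The *Rela* probe printed above, much dimmer, read 6.78, 6.86 and 7.04 in the controls and 8.11, 7.61 and 7.37 in Ctsk-Cre;Ano1fl/fl. Its rise of 0.80 (SE 0.19, adjusted p = 0.014) was spread over a wider range, and it did not differ from that of the brightest probe by the test (adjusted p = 0.125). The methods' t-test gave an adjusted p of 0.0538 for this dim probe.

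*Relb* encodes the partner of p52 in the alternative branch. Its brightest probe read 12.31, 12.40 and 12.51 in Ano1fl/fl and 12.99, 12.87 and 12.95 in Ctsk-Cre;Ano1fl/fl, a rise of 0.53 (SE 0.09, adjusted p = 0.00294). A second *Relb* probe, on the same 3′ part of the gene, rose by 0.64 (SE 0.09, adjusted p = 0.00161). The remaining *Relb* probe, assigned only to a transcript outside RefSeq, differed by 0.18 (95% interval -0.13 to 0.49, adjusted p = 0.273) and its groups overlapped. Without Ano1fl/fl replicate 1 this probe passed, at 0.31 (adjusted p = 0.0428).

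*Nfkb1* encodes p105, the precursor of p50. Its brightest probe read 12.88, 12.91 and 13.03 in Ano1fl/fl and 13.71, 13.33 and 13.55 in Ctsk-Cre;Ano1fl/fl. The rise was 0.59 (SE 0.12, adjusted p = 0.00639), and the lowest Ctsk-Cre;Ano1fl/fl array lay above the highest control. The printed *Nfkb1* probe, the only one of its 3 tied to a RefSeq transcript, rose by 0.69 (SE 0.17, adjusted p = 0.0156). Its first Ctsk-Cre;Ano1fl/fl array, at 9.85, stood above the other 2 at 9.29 and 9.26, and the controls lay at 8.70 to 8.89. The call of this probe was lost with the methods' t-test (adjusted p = 0.055) and without Ano1fl/fl replicate 2 (0.65, adjusted p = 0.0536).

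*Nfkb2* encodes p100, which both holds back RelB and is cut to p52. Its brightest probe read 13.25, 13.21 and 13.31 in Ano1fl/fl and 13.19, 12.95 and 13.12 in Ctsk-Cre;Ano1fl/fl. The groups stood apart by a narrow margin, and the difference of -0.17 (95% interval -0.38 to 0.05, adjusted p = 0.155) did not pass. Under 75th percentile scaling it was -0.27 (adjusted p = 0.0304), with the mean of its probes -0.09, and without Ctsk-Cre;Ano1fl/fl replicate 2 it was -0.10. A second *Nfkb2* probe differed by -0.01 (95% interval -0.19 to 0.16, adjusted p = 0.897), with overlapping groups.

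Of the inhibitors, *Nfkbia* encodes I kappa B alpha, the classical inhibitor that NF-kappa B itself induces. It read 15.07, 15.17 and 15.20 in Ano1fl/fl and 16.20, 16.28 and 16.17 in Ctsk-Cre;Ano1fl/fl. The rise of 1.07 (SE 0.08, adjusted p = 0.000134) was many times the SD of either group (0.07 and 0.06). *Nfkbie*, for I kappa B epsilon, read 10.99, 11.46 and 11.44 in the controls and 11.91, 11.62 and 11.89 in Ctsk-Cre;Ano1fl/fl, a rise of 0.51 (SE 0.16, adjusted p = 0.0335). This was the largest adjusted p among the 9 calls, and the call was lost in 7 of 16 alternative settings, among them 75th percentile scaling (0.44, adjusted p = 0.0516), the methods' t-test (adjusted p = 0.0861) and the fits without Ano1fl/fl replicate 1 (0.36, adjusted p = 0.06), Ctsk-Cre;Ano1fl/fl replicate 1 (0.46, adjusted p = 0.0931) or Ctsk-Cre;Ano1fl/fl replicate 3 (0.47, adjusted p = 0.0907).

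*Nfkbiz* encodes I kappa B zeta, which acts in the nucleus with p50 and is needed for a second wave of genes such as *Il6*. Its brightest probe read 9.76, 9.50 and 9.67 in Ano1fl/fl and 13.15, 13.04 and 13.15 in Ctsk-Cre;Ano1fl/fl. The gap of 3.47 (SE 0.09, adjusted p = 5.7e-06) far exceeded the spread within either group. The printed *Nfkbiz* probe read 8.05, 7.83 and 7.96 against 10.703, 10.42 and 10.22, a rise of 2.50 (SE 0.14, adjusted p = 5.0e-05, 5.67-fold). The remaining *Nfkbiz* probe, assigned only to a transcript outside RefSeq, stayed near background on all 6 arrays and was not tested.

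*Tnfaip3* encodes A20, which edits ubiquitin chains upstream of the I kappa B kinase and so ends the signal. It read 11.67, 12.07 and 12.11 in Ano1fl/fl and 13.55, 13.57 and 13.49 in Ctsk-Cre;Ano1fl/fl, a rise of 1.58 (SE 0.13, adjusted p = 0.000228). The Ctsk-Cre;Ano1fl/fl arrays lay close together, and the controls were spread more widely, with the first of them lowest.

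*Map3k14* went the other way on all of its 3 probes. The brightest read 11.48, 11.43 and 11.48 in Ano1fl/fl and 10.40, 10.28 and 10.32 in Ctsk-Cre;Ano1fl/fl, and fell by 1.13 (SE 0.07, adjusted p = 9.0e-05). The other probes fell by 1.12 (SE 0.11, adjusted p = 0.000355) and by 1.05 (SE 0.14, adjusted p = 0.00132), the latter being the probe printed above. The last probe lies toward the 5′ end of the transcript and the brightest toward its 3′ end, and the difference between their changes did not pass (0.08, adjusted p = 0.699), though it did with normexp (0.41, adjusted p = 0.00505).

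**Figure D2:**
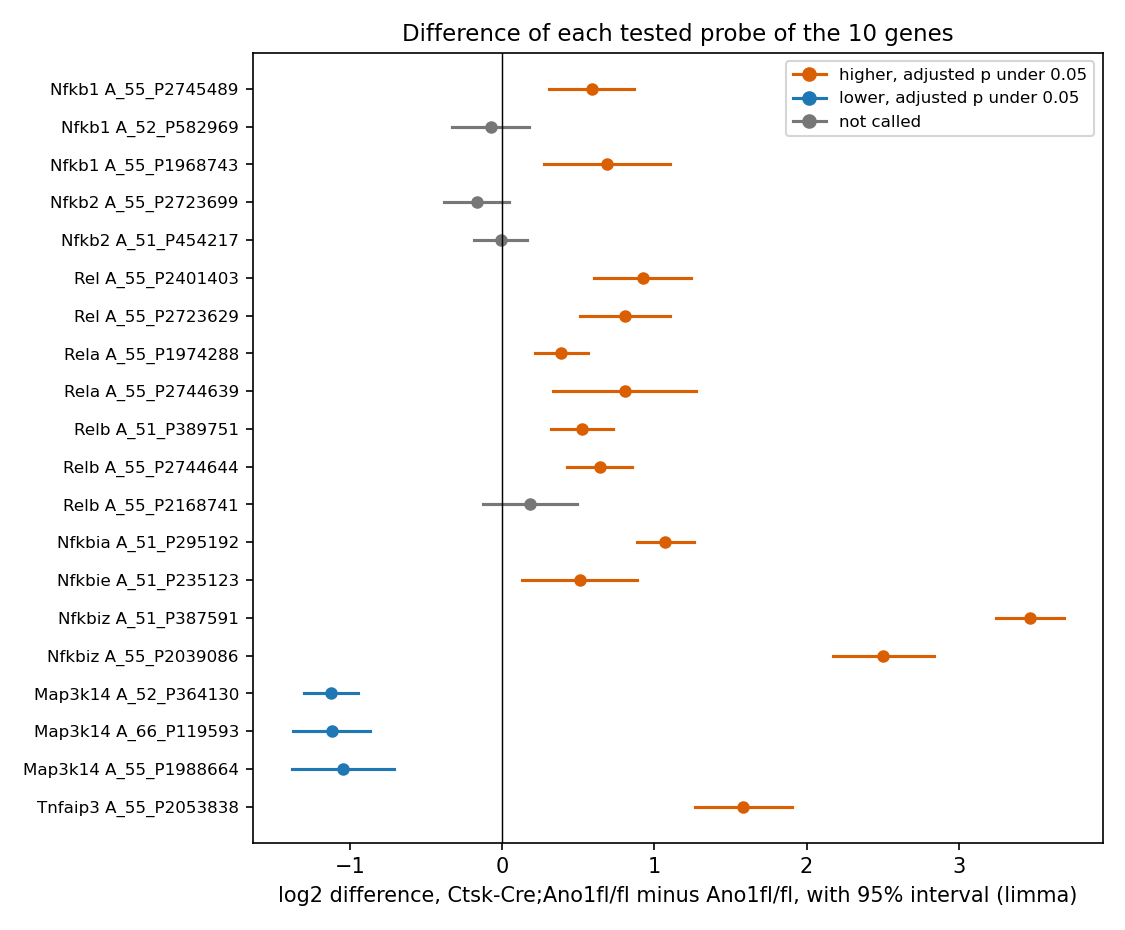
Log2 difference between Ctsk-Cre;Ano1fl/fl and Ano1fl/fl for each of the 20 tested probes (horizontal axis), with its unadjusted 95% interval from limma. Orange marks the 13 probes called higher, blue the 3 called lower and grey the 4 not called, and the 2 *Nfkbiz* probes lie farthest to the right.

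Whether the probes of 1 gene changed alike was tested on the difference between each other probe and the brightest, within the array. Of the 10 such pairs in these genes, 2 differed, against 31.7% of 11198 pairs in all genes. The count was 5 with normexp and 4 with the series matrix values, the *Rel* pair and the *Relb* probe A_55_P2168741 (-0.46 and -0.42) passing in both and the *Map3k14* probe A_55_P1988664 with normexp. Over all genes the count of such pairs rose too, from 3545 to 4505 with normexp and 4144 with the series matrix. The *Nfkbiz* probe A_55_P2039086 rose by 0.97 less than the brightest (difference -0.97, SE 0.13, adjusted p = 0.00362), in each of 11 alternatives as well. The *Nfkb1* probe A_52_P582969, with no RefSeq transcript, read 9.16, 9.08 and 9.36 in Ano1fl/fl and 9.13, 9.23 and 9.02 in Ctsk-Cre;Ano1fl/fl. It differed between the groups by -0.08 (adjusted p = 0.559) and from the rise of the brightest probe by -0.67 (SE 0.14, adjusted p = 0.016). That last call was lost without Ano1fl/fl replicate 1 (-0.66, adjusted p = 0.0529) and without Ano1fl/fl replicate 3 (-0.63, adjusted p = 0.0534).

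**Figure D3:**
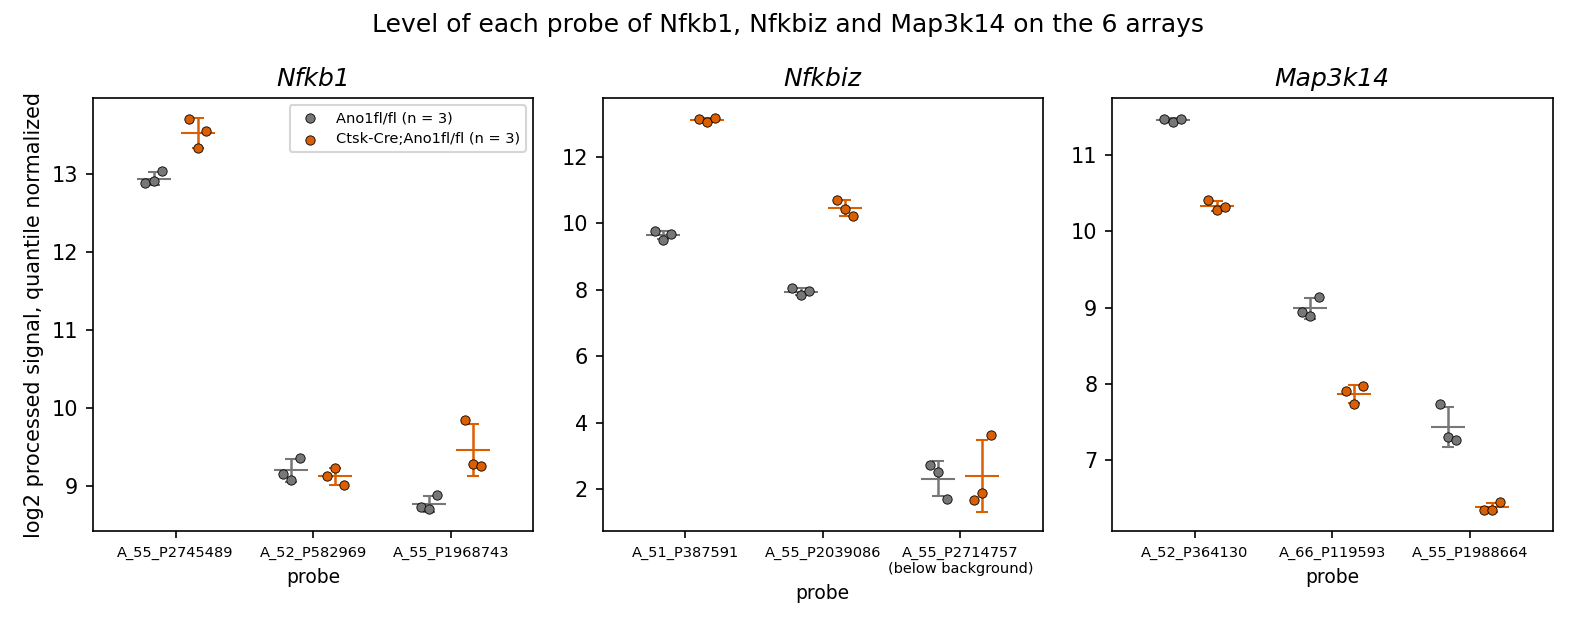
Log2 processed signal of every probe of *Nfkb1*, *Nfkbiz* and *Map3k14* on the 6 arrays, with points for arrays and the mean and SD of 3 arrays per group. The 3 *Map3k14* probes fall together, the *Nfkb1* probe in the middle overlaps between groups, and the *Nfkbiz* probe on the right is not above background.

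Markers of other cell types differed between the groups, and in bulk RNA fewer cells of a type and less RNA per cell cannot be told apart. The counts that follow stand beside 23.0% of all genes tested called higher and 28.5% called lower. Of 11 stromal and osteoblast markers tested, 9 were higher and 1 was lower in Ctsk-Cre;Ano1fl/fl, and the summed signal of the list was 2147 to 3175 in Ano1fl/fl and 56650 to 94410 in Ctsk-Cre;Ano1fl/fl. Its brightest members, *Sparc* and *Col1a2*, rose by 4.82 and 5.39 on the log2 scale. Among the 9 higher, 1 was below background on all control arrays, and its call rests on control values at the floor. The single lower marker was not called in 12 settings, among them each of the 6 fits without 1 array. All 8 B cell markers, a list added after the values were seen, were higher (sum 7934 to 9446 against 31030 to 60650), with *Cd79b* up by 1.83 and *Ms4a1* by 2.85. Of 8 neutrophil markers, 6 were lower and 0 were higher (297800 to 312700 against 190900 to 242000), with *S100a9* at 0.20, not past the test, and *S100a8* at -0.60. These 2 genes make up most of that sum, and the list's median difference was -2.66, with 5 of the 8 more than 2-fold lower, among them *Mpo* (-3.41). Of 8 macrophage markers 1 was higher and 3 were lower (369000 to 384700 against 375800 to 420900). The 3 lower were *Cx3cr1* (-4.62), *Mrc1* (-1.36) and *Fcgr1* (-0.91), and the higher one was *Adgre1* (0.80). The bright genes that dominate the sum were *Adgre1* itself, *Csf1r* at -0.04 and *Cd68* at 0.20. Neither *Csf1r* nor *Cd68* passed the test, although *Cd68* passed in 4 alternatives (0.20 to 0.32). In 8 alternatives 2 or 3 of the macrophage markers were higher. Of 7 dendritic cell markers tested 4 were higher and 1 was lower (17970 to 18880 against 25540 to 28270), with *Siglech* at -0.17, not past the test except with the mean of its probes (-1.39), and *Ccr7* up by 0.81, and *Xcr1* was below background on all 6 arrays. None of the dendritic cell markers was lower in 6 settings, among them the fits without Ano1fl/fl replicate 1 or 3 or Ctsk-Cre;Ano1fl/fl replicate 1 or 2. Of 7 T and NK cell markers 3 were higher and 2 were lower (3507 to 3943 against 4044 to 7453), with *Lck* up by 2.67 and *Nkg7* down (-1.77); the number lower was 4 without Ctsk-Cre;Ano1fl/fl replicate 3 and 1 with the mean of the probes. Of 4 endothelial markers tested 1 was higher and 1 was lower (3705 to 4797 against 1749 to 2006), with *Kdr* at -1.33 and *Pecam1* at 0.91. NF-kappa B genes are active in most of these cell types, and the part of these markers in the changes of the 10 genes was not tested.

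A further list held other I kappa B genes together with genes whose products resemble or bind I kappa B proteins. Of its 6 genes, 4 were higher and 0 were lower, against 23.0% and 28.5% of all genes tested. The median difference was 0.47, against -0.06 over all genes. *Bcl3*, a nuclear I kappa B protein that works with p50 and p52, rose by 0.62 (SE 0.09, adjusted p = 0.00193). *Nfkbib*, for I kappa B beta, rose by 0.57 (SE 0.08, adjusted p = 0.00204), and *Nkiras1*, whose small GTPase binds I kappa B proteins, by 0.49 (adjusted p = 0.00618). *Nfkbid*, for the nuclear inhibitor I kappa B NS, differed by 0.00 at its brightest probe (adjusted p = 0.985), while another of its probes rose by 0.43 (adjusted p = 0.0384).

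By their brightest probes, differences in the genes of the I kappa B kinase itself were small. Of 11 genes for that complex and related kinases, 4 were higher, 1 was lower and 6 did not pass (median 0.18). Over all genes tested, 23.0% were higher and 28.5% lower. *Chuk*, for IKK alpha, differed by 0.18 (adjusted p = 0.104, and 0.044 with trend and robust eBayes). *Ikbkb*, for IKK beta, fell by 0.28 (adjusted p = 0.0211), and 2 further tested probes of it fell too (-0.39 and -1.13). *Ikbkg*, for the scaffold NEMO, rose by 0.26 (adjusted p = 0.0297). The *Ikbkb* call was lost in 3 of the 6 fits that leave out 1 array, those without Ano1fl/fl replicate 3 (-0.24), Ctsk-Cre;Ano1fl/fl replicate 1 (-0.28) and Ctsk-Cre;Ano1fl/fl replicate 3 (-0.27), and that of *Ikbkg* was lost in 5 of those 6, all but the one without Ctsk-Cre;Ano1fl/fl replicate 3, at 0.24 to 0.28. By the brightest probe, the larger changes lay in kinases beside the complex. *Map3k8* (TPL2, held inactive by p105) rose by 1.11 (SE 0.07, adjusted p = 9.1e-05), although another of its probes fell by 0.53 (adjusted p = 0.0222). *Ikbke* rose by 0.92 (adjusted p = 0.00147) and *Tbk1* by 0.38 (adjusted p = 0.00996), both for kinases related to the I kappa B kinase. A second, much dimmer *Ikbke* probe differed by 0.12 (adjusted p = 0.635), with overlapping groups.

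**Figure D4:**
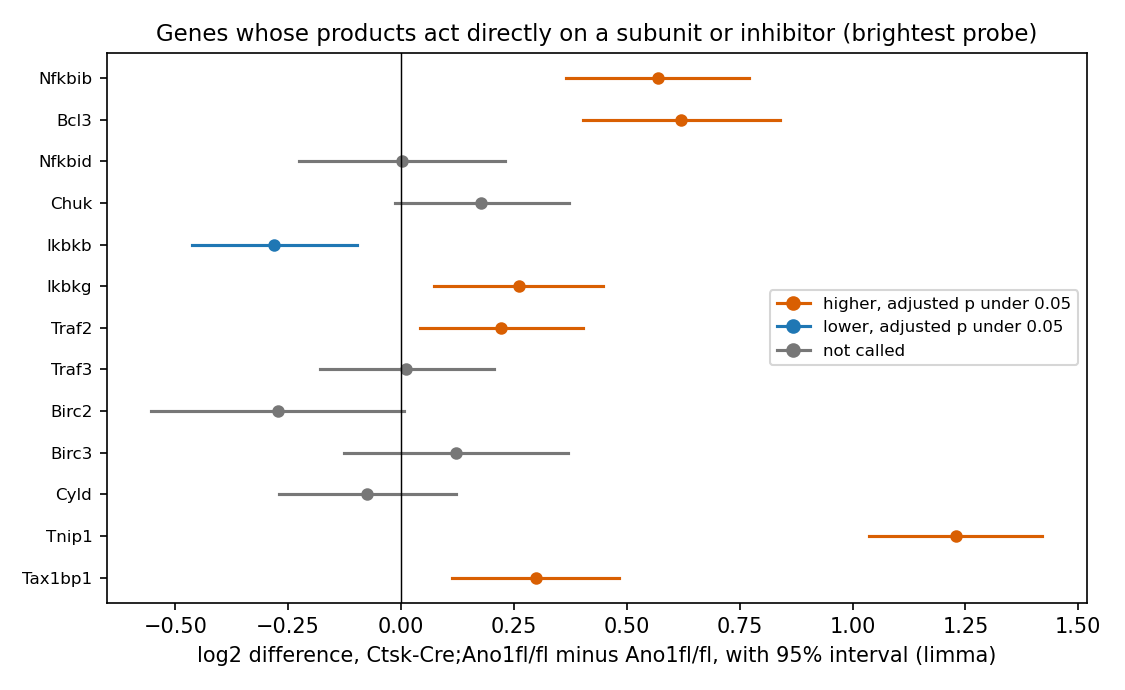
Log2 difference between Ctsk-Cre;Ano1fl/fl and Ano1fl/fl, with its unadjusted 95% interval from limma, for the brightest probe of 13 genes whose products act directly on a subunit, an inhibitor, NIK or A20. *Tnip1* lies farthest to the right at 1.23, and *Ikbkb* is the single gene called lower.

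NIK is kept low in resting cells by TRAF3, TRAF2 and the ubiquitin ligases cIAP2 and cIAP1. *Traf3*, for the adaptor that binds NIK, differed by 0.01 (adjusted p = 0.908), and *Traf2* rose by 0.22 (adjusted p = 0.0452). The *Traf2* call was lost in each of the 6 fits without 1 array (0.18 to 0.24) and with 75th percentile scaling (0.12, adjusted p = 0.277). *Birc2*, for cIAP1, differed by -0.27 (adjusted p = 0.0912), and its second probe fell by 0.41 (adjusted p = 0.0143). The fall of *Birc2* was called under 75th percentile scaling (-0.33, adjusted p = 0.0465) and for the mean of both probes (-0.34, adjusted p = 0.0093). *Birc3*, for cIAP2, differed by 0.12 at its brightest probe (adjusted p = 0.358), and its 3 other probes fell (-0.50, -0.56 and -0.68), so its probes disagree. The mean of the *Birc3* probes fell (-0.40, adjusted p = 0.0075).

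Among 24 receptor adaptors and ubiquitin ligases, 8 were higher and 5 were lower, against 23.0% and 28.5% of all genes tested (median -0.01). The largest rises were those of *Traf4* (3.25, SE 0.20, adjusted p = 7.2e-05) and of *Irak3* (2.25, SE 0.12, adjusted p = 4.0e-05), which encodes IRAK-M, an inhibitory member of the IRAK family. The largest falls were those of *Card9* (-0.76), *Irak4* (-0.66) and *Traf1* (-0.57). With 75th percentile scaling, and likewise with the mean of the probes of a gene, 9 of the 24 were lower.

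Of 18 deubiquitinases and other brakes, 9 were higher and 2 were lower, against 23.0% and 28.5% of all genes tested (median 0.21). *Tnip1*, whose product ABIN1 binds A20, rose by 1.23 (SE 0.08, adjusted p = 8.7e-05, 2.34-fold). *Cflar*, the caspase-8 inhibitor and an NF-kappa B target, rose by 0.87 (adjusted p = 0.00069), with 3 other probes higher and 1 lower (-0.43). *Tank*, for a TRAF-binding protein, rose by 0.79 (adjusted p = 0.000313). *Tax1bp1*, for a partner of A20, rose by 0.30 (adjusted p = 0.018). *Cyld*, for a deubiquitinase of the pathway, differed by -0.08 (adjusted p = 0.469), although 2 of its other probes fell (-0.70 and -1.44), as did the mean of its probes (-0.59, adjusted p = 0.00373). The *Tax1bp1* call was lost with 75th percentile scaling (0.20), with the mean of its probes (0.14) and in 4 fits without 1 array, those of Ano1fl/fl replicates 1 and 2 and of Ctsk-Cre;Ano1fl/fl replicates 1 and 3 (0.27 to 0.28). The 2 genes that fell, *Pdlim2* (-0.24) and *Trafd1* (-0.23), lost their calls in 7 and 8 settings, in 5 fits without 1 array each: for *Pdlim2* all but the one without Ano1fl/fl replicate 1 (-0.27 to -0.21), for *Trafd1* all but the one without Ctsk-Cre;Ano1fl/fl replicate 1 (-0.26 to -0.20).

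The receptors were mixed, with 6 of 17 higher and 5 lower, against 23.0% and 28.5% of all genes tested, and a median of 0.09. *Tnfrsf13c*, for the BAFF receptor of B cells, rose by 4.21 (SE 0.22, adjusted p = 4.3e-05, 18.5-fold), beside the B cell markers given above, whose part in it was not tested. *Il1r1*, for the signaling IL-1 receptor, rose by 2.28 and *Tnfrsf12a*, for the TWEAK receptor, by 1.58. *Tlr3* (-1.60), *Tlr7* (-0.55) and the IL-1 receptor accessory gene *Il1rap* (-0.46) fell. Without Ano1fl/fl replicate 2 or 3, or without Ctsk-Cre;Ano1fl/fl replicate 1 or 3, 3 of the 17 were lower.

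Of 11 ligand genes, 9 were tested, and 5 of these were higher and 2 lower, against 23.0% and 28.5% of all genes tested (median 1.21). *Tnf* read 9.37 ± 0.17 in Ano1fl/fl and 13.60 ± 0.17 in Ctsk-Cre;Ano1fl/fl (mean ± SD, n = 3 arrays each), a rise of 4.23 (18.8-fold, limma adjusted p = 8.6e-06). *Lta*, for lymphotoxin alpha, rose by 3.14 (adjusted p = 8.4e-05). No control array showed *Il1a* above background, so its control values lie at the floor and no p-value is given. It was at least 27.7-fold higher in Ctsk-Cre;Ano1fl/fl, taking the dimmest detected probe of each control array as the limit. Its call, counted among the 5 higher, rests on these floor values. *Il18* fell by 1.18 and *Tnfsf14*, for LIGHT, by 0.89.

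Genes commonly described as NF-kappa B targets had the largest median rise of the pathway lists. Of 39 listed, 37 were tested, 29 were higher, 4 were lower and 4 did not pass. Of all genes tested, 23.0% were higher and 28.5% lower. The 29 include 4 genes below background on all control arrays, whose calls rest on control values at the floor. The median difference was 2.29, or 2.20 with those 4 genes at their lower limits. *Cxcl1*, for a chemokine that attracts neutrophils, read 6.22 ± 0.17 in Ano1fl/fl and 11.88 ± 0.42 in Ctsk-Cre;Ano1fl/fl, a rise of 5.67 (50.9-fold, limma adjusted p = 1.5e-05, n = 3 arrays each). The chemokine gene *Ccl20* was at least 18.9-fold and the growth factor gene *Csf3* at least 17.3-fold higher, both below background in the controls. The falls were those of the cell cycle gene *Ccnd1* (-2.45), the chemokine gene *Ccl5* (-0.84), *Il12b* (-0.75), for the p40 chain of IL-12 and IL-23, and the interferon regulatory factor gene *Irf1* (-0.39). The list was chosen with results of these data known, *Mmp9* in it is also one of the 9 osteoclast markers, and many of its genes are made by stromal cells as well, whose markers moved with them and whose part in these changes was not tested.

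**Figure D5:**
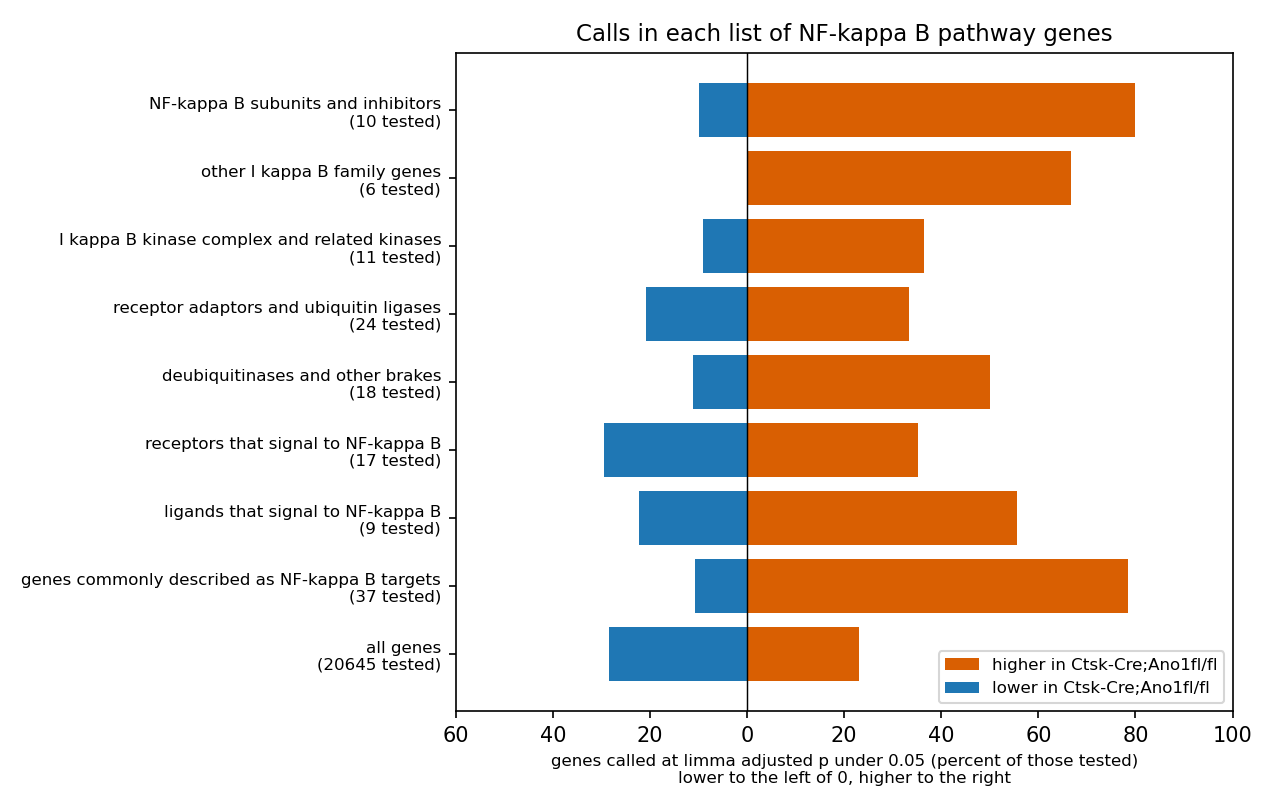
Percent of the tested genes in each list called higher (orange, right of 0) or lower (blue, left of 0) in Ctsk-Cre;Ano1fl/fl by limma at an adjusted p under 0.05, with all 20645 genes at the bottom. The bar for the 10 subunits and inhibitors (8 higher, 1 lower) and that for the target genes (29 of 37 higher) reach farthest to the right among these pathway lists, and receptors and adaptors are split between both sides.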

How the data were processed

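Per the labels, the 6 arrays were Agilent mouse 8x60K arrays, read with Agilent Feature Extraction 10.7.1.1. The deposited scanner files hold intensities per spot on a linear scale; the processed signal is background-subtracted and not normalized between arrays, and dim spots carry a surrogate. The deposited series matrix holds intensities equal to the median spot signal (62973 values per array, largest difference 0). All arrays shared 1 slide and 1 scan, so no slide effect could be fitted.

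Control spots were left out and outlier spots were set missing. After log2 transformation the processed signals were quantile normalized, the algorithm named in the methods, and spots of 1 probe were averaged; 14 probes lacking a value on an array were dropped. A probe was tested where at least 0.5 of its spots were well above background on all 3 arrays of 1 group. Probes were compared with lmFit and eBayes in limma 3.58.1 (R 4.3.3, with data.table at version 1.17.8), adjusted by Benjamini-Hochberg over 31848 probes, and called at an adjusted p under 0.05. A gene was counted by its brightest probe. A second limma fit compared each other probe with the brightest within an array. A fold against a group below background is a lower limit. The fit was tested on simulated data. Python 3.11.15, pandas 2.3.3 and matplotlib 3.10.9 were used for reading and plots. Precision is limited by the number of arrays, and no count or depth applies to array intensities. Gene names are those of the array files, with 1 marker (*Emr1*) matched to *Adgre1* by RefSeq synonyms, and *Trac* was not on the array.

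The 10 genes, the pathway and marker lists and the tests were chosen with earlier results of these data known, and the B cell list was added after its values were seen. Named are every probe of the 10 genes, the genes acting directly on them, the 3 largest called rises and the 3 largest called falls of each pathway list with groups apart, and the 2 brightest genes of a marker list; *Xcr1*, *Irf1*, *Mmp9*, *Mpo*, *Cx3cr1*, *Mrc1*, *Fcgr1* and *Adgre1* were named after their values were seen. For 1 gene under this rule no value is reported here. Each alternative changed a single choice: 75th percentile scaling, normexp (offset 50), the series matrix values, testing all probes, a filter on all 6 arrays, 1 row per gene, trend and robust eBayes, the methods' t-test, a replicate block, and each array left out.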

Additional observations from a re-analysis of the deposited data

How the results depend on the processing

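The 10 genes kept their direction at the brightest probe in each of 16 alternatives, and *Nfkbie* alone among the 9 calls lost its call, in 7 of them. Member genes called lower numbered 2 with 75th percentile scaling (1 otherwise), the second being *Nfkb2*. That scaling moved the median of all genes from -0.06 to -0.12. The t-test that the methods name called 16 of the 20 probes unadjusted and 13 after Benjamini-Hochberg. The replicate numbers do not pair the arrays, since the residuals of same-numbered arrays correlated at -0.02, -0.09 and -0.09. With the replicate block, 7 of the 10 genes were higher and 1 was lower, and 2305 probes differed from the brightest probe of their gene against 3545 without it; the block also ended the calls of *Nfkbie*, *Ikbkb*, *Ikbkg*, *Traf2*, *Pdlim2* and *Trafd1* and that of the *Nfkb1* A_52_P582969 pair (-0.67, adjusted p = 0.052), and no other call among the probes of the 10 genes and the brightest probes of the 60 other genes run with it. Over all genes, 4019 to 5169 were higher and 4761 to 6579 were lower across the alternatives. The sign of some differences that were not called as reported changed: *Nfkbid* (-0.09 with 75th percentile scaling, -0.002 with normexp), *Traf3* (-0.083 with 75th percentile scaling), *Birc3* (-0.40 with the mean of its probes, then called) and *Csf1r* (0.001 with normexp, 0.003 with the series matrix). Over the 6 fits that leave out 1 array, the sign also changed in *Nfkbid* (-0.055 to 0.061), *Traf3* (-0.031 to 0.059), *Csf1r* (-0.074 to 0.025), *Nfkb1* A_52_P582969 (-0.138 to 0.002) and *Nfkb2* A_51_P454217 (-0.036 to 0.017). Against the brightest probe it changed in *Map3k14* A_66_P119593 (-0.051 to 0.073) and *Map3k14* A_55_P1988664 (-0.012 to 0.22), and *Nfkb1* A_55_P1968743 reached 0 (0 to 0.214). The cause was not tested. Probes near background, such as the dimmest *Nfkbiz* probe and that of *Ano1*, have no measured difference.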
